A study of Mus musculus with 12 samples.

Results

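The 10 genes described here were the 5 perilipins (Plin1 to Plin5), the triglyceride lipases Pnpla2 and Lipe, the acyltransferases Dgat1 and Dgat2, and Cpt1a, taken as the rows carrying these symbols out of 22548 genes measured. All 10 symbols were found. Plin5 was chosen by its measured values, because they were higher in the CASIN samples than in the controls, so its levels in the 3 groups are given as a description without a test. The other 9 were named for their function, but the list was drawn up with results on these samples known.

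RNA-seq had been run on long-term hematopoietic stem cells (HSCs) sorted from the bone marrow of C57BL/6 mice as lineage-negative, c-Kit+, Sca-1+, CD34-/low and Flk2- cells. The 12 samples fell into young control HSCs (mice of 2 to 4 months, n = 4, replicates 2, 3, 4 and 5), aged control HSCs (20 to 26 months, n = 5, replicates 0, 2, 3, 4 and 5) and aged HSCs given 5 µM CASIN (20 to 26 months, n = 3, replicates 1, 2 and 3). CASIN is an inhibitor of the activity of Cdc42, a small RhoGTPase. All groups, controls included, had spent 16 h in culture in serum-containing medium at 3% O2 before RNA was taken, so every value here is that of a cultured HSC. The labels give at least 200 cells for each sample, and the study's methods give a larger pool. The methods define repeats as work done on separate days with separate mice, and the labels do not say which mice gave which sample. The p-values measure the spread between these samples. In bulk samples such as these, fewer cells carrying a transcript and less transcript per cell cannot be told apart.

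Lipid droplets store fatty acids as triglyceride under a single phospholipid layer. Perilipins coat that layer and control how lipases reach the store: Plin1 is the coat protein of fat cells, Plin2 and Plin3 are found in most tissues, Plin4 is found mainly in fat and muscle, and Plin5 is known from tissues that burn fatty acids, such as heart, where it also ties droplets to mitochondria. Pnpla2 (adipose triglyceride lipase) removes the first fatty acid of a triglyceride and Lipe (hormone-sensitive lipase) removes the next. Dgat1 and Dgat2 catalyse the last step of triglyceride synthesis, and Cpt1a loads long-chain fatty acids onto carnitine for entry into mitochondria.

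The values were log2 expression values brought to one distribution by quantile normalisation, and in each sample many genes were tied at a lowest value, here called undetected. Undetected is not the same as not expressed: of 9 housekeeping genes, picked after their values were seen, 4 to 9 were above the lowest value in a sample, and Hprt was tied at it in 10 of 12 samples. Detection differed between samples, with 6078 to 9673 genes detected in young HSCs, 11463 to 17621 in aged HSCs, and 6845, 20013 and 7288 in CASIN replicates 1, 2 and 3. Detected values also began at different levels. The start was taken as the first percentile of a sample's detected values. It was a value that 458 to 1452 genes shared, so under 1% of detected genes lay below it. This start was 1.84 to 4.11 in young HSCs and 0.22 to 1.36 in aged HSCs. In CASIN replicates 1, 2 and 3 it was 3.34, 0.04 and 3.03. A low detected level could thus be recorded in aged HSCs and in CASIN replicate 2 that had no counterpart in the other samples. Of 12 HSC markers, 4 to 7 were detected in young HSCs, 8 to 12 in aged HSCs and 4, 12 and 5 in CASIN HSCs. Meis1 was detected in every sample, whereas Kit and Ly6a (Sca-1), which the gate required, were undetected together in all 4 young samples, in aged replicate 3 and in CASIN replicates 1 and 3. Of genes the gate selected against, Itgam and Cd8a were detected in all 12 samples and Cd5 in none. Flt3 (Flk2) was detected in 1 young, 5 aged and 1 CASIN sample, and Cd34 in 1 young, 4 aged and 1 CASIN sample. Among 6 T cell markers, Cd3d and Cd4 were detected in all 12 samples and the others in only some. In all, 2 to 4 of the 6 were detected in young samples, 3 to 6 in aged samples and 3 to 6 in CASIN samples. The part of RNA from other cells in the members' values was not tested.

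Members followed the same order of detection. Over the 12 samples 54 of 120 member values were detected, or 45.0%, against 50.2% for all genes. Young samples held 2, 2, 3 and 1 detected members, aged samples 8, 8, 4, 5 and 6, and CASIN samples 2, 9 and 4. The samples with the most detected genes, CASIN replicate 2 and aged replicates 2 and 0, were also those with the most detected members. Plin3 was detected in all 12 samples, Pnpla2 and Cpt1a in 7, Plin2 in 6, Plin4, Plin5 and Lipe in 5, Dgat2 in 4, Plin1 in 2 and Dgat1 in 1.

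**Figure D1:**
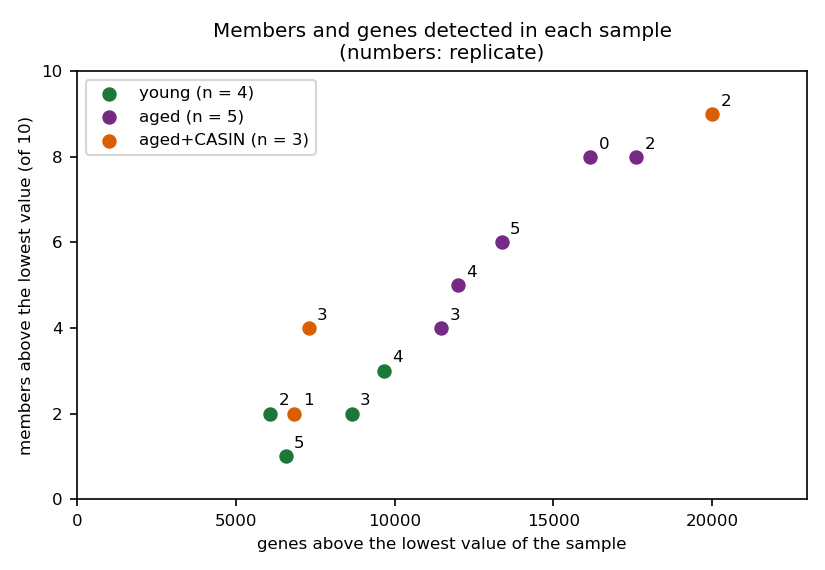
Members above the lowest value of a sample (y axis, of 10) against all genes above it (x axis, of 22548), 1 point per sample, numbered by replicate and coloured by group. CASIN replicate 2, with 20013 genes, had 9 members detected, and young replicate 5, with 6567 genes, had 1.

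Plin5 (chr17:56111601-56117596, minus strand, mm10) was undetected in all 4 young HSC samples, where the tied value was 0.43 to 0.67. In aged HSCs its log2 values were 0.48, 0.22, 0.23, 0.22 and 0.16 in replicates 0, 2, 3, 4 and 5, of which only the first and second were detected. In CASIN-treated aged HSCs they were 4.37, 4.86 and 3.03. All 3 CASIN samples were thus above all 9 control samples. The difference of means was 3.82 (SE 0.43) on the log2 scale between CASIN and aged HSCs and 3.52 (SE 0.45) between CASIN and young HSCs, against 0.29 (SE 0.40) between young and aged HSCs, where the detected values in aged replicates 0 and 2 were lower than the value tied for undetected genes in some young samples.

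The 3 CASIN values did not stand equally clear of the level at which detection began. In CASIN replicate 2, 76.5% of the detected genes were below Plin5, and in CASIN replicate 1, 21.4% were. In CASIN replicate 3 the Plin5 value was the one at which detected values began, a value that 1032 genes shared, and 0.233% of detected genes were below it. The detected values in aged replicates 0 and 2 were likewise at that start. When every value under 4.11, the highest such start among the 12 samples, was set to 4.11, the CASIN minus aged difference was 0.33 (SE 0.13). That setting was chosen after the data were seen, and it compresses any difference among low values. The part that the start of detection had in the Plin5 difference was not tested further.

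**Figure D2:**
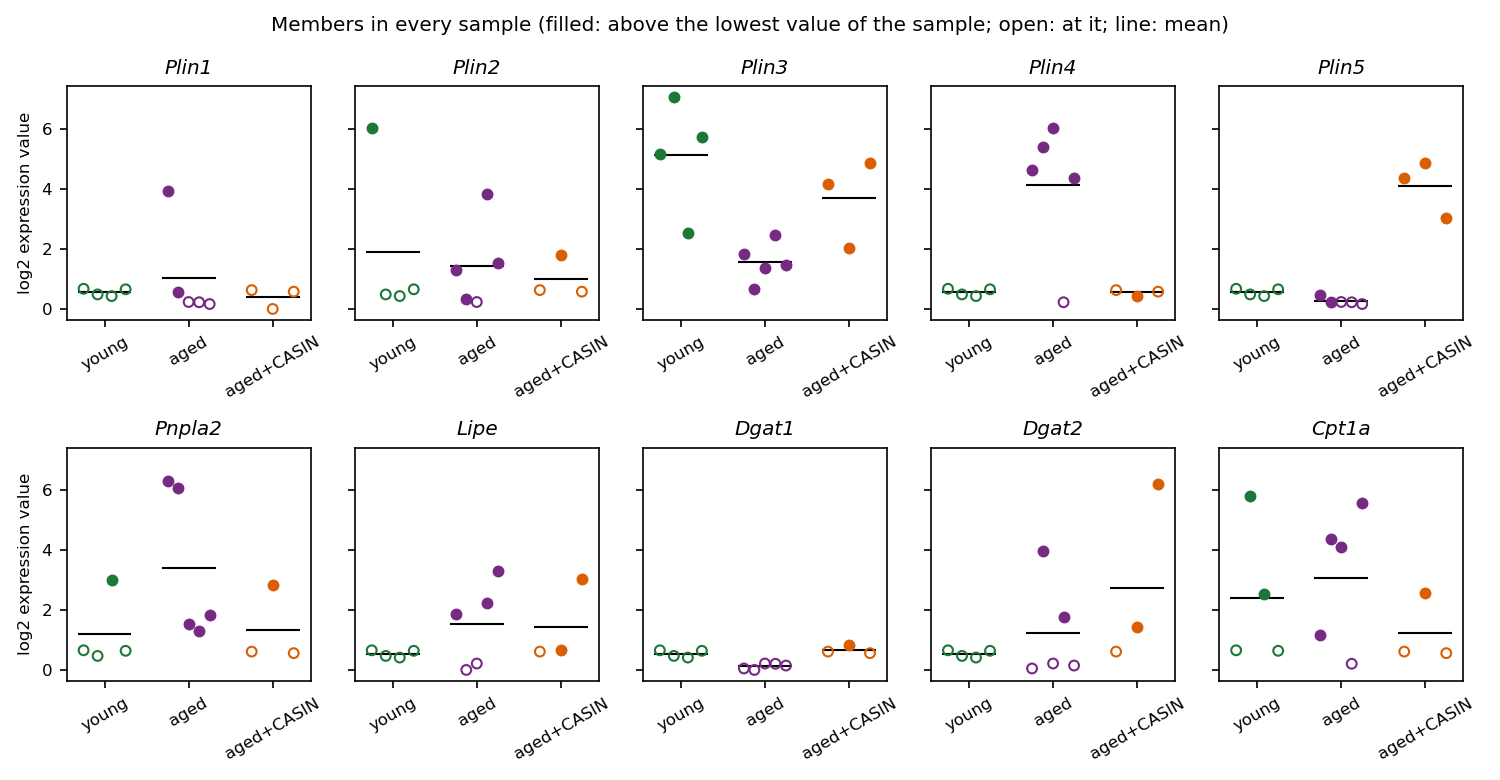
Log2 expression value (y axis) of each of the 10 genes in young, aged and CASIN-treated aged HSCs, 1 point per sample in order of replicate; filled points are detected, open points are tied at the lowest value of the sample, and lines are means. Plin5 is higher in the 3 CASIN samples (3.03 to 4.86) than in the 9 control samples, Plin4 is detected in 4 of 5 aged samples, and Plin3 is detected throughout.

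Plin4 (chr17:56100591-56109803, minus strand) is the neighbour of Plin5, 1798 bp away. It had log2 values of 4.62, 5.40, 6.02, 0.22 and 4.37 in aged replicates 0, 2, 3, 4 and 5, the fourth being undetected. It was undetected in all 4 young samples and in CASIN replicates 1 and 3, and was 0.45 in CASIN replicate 2. The 4 aged values were above all young and CASIN values, and 60.4% to 77.2% of the detected genes of those samples were below them, while aged replicate 4 was below every one. Young minus aged was -3.57 (SE 0.97; unadjusted p = 0.00391, adjusted p = 0.542 over all genes in the limma fit), so it did not pass the adjusted threshold. CASIN minus aged was -3.58 (SE 1.06) and CASIN minus young was -0.01 (SE 1.11). Both differences from aged HSCs use the same 5 aged samples. Without aged replicate 4, young minus aged was -4.54 with an adjusted p of 0.00453 by limma. That sample is the only aged sample with Plin4 undetected, so leaving it out was bound to enlarge the difference, and this fit is no test. Over all fits that left out 1 sample, the adjusted p by limma ran from 0.00453 to 0.759. With all values under 4.11 set to 4.11, as for Plin5, young minus aged was -0.79 (unadjusted p = 0.0457, adjusted p = 0.898 by limma) and CASIN minus aged was -0.79 (SE 0.38). Plin4 shares 17 bp with Hdgfl2 on the opposite strand, and strand-aware counting was not stated.

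Plin3 (chr17:56277476-56292873, minus strand), the perilipin of most tissues that moves to new droplets from the cytosol, had log2 values of 5.14, 7.07, 2.54 and 5.71 in young replicates 2, 3, 4 and 5. In aged replicates 0, 2, 3, 4 and 5 they were 1.84, 0.67, 1.36, 2.46 and 1.46, and in CASIN replicates 1, 2 and 3 they were 4.15, 2.03 and 4.85. Every young value was above every aged value, the closest pair being 2.54 and 2.46, and the CASIN values ran from within the aged range to within the young range. Young minus aged was 3.56 (SE 0.88, 95% interval 1.61 to 5.51; unadjusted p = 0.0021, adjusted p = 0.534 in the limma fit), again short of the adjusted threshold. CASIN minus aged was 2.12 (SE 0.96), and CASIN minus young was -1.44 (SE 1.01).

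By mean level Plin3 ran from young (5.12 ± 1.90, SD, n = 4) through CASIN (3.68 ± 1.47, n = 3) to aged HSCs (1.56 ± 0.66, n = 5), and the spreads of young and CASIN HSCs overlapped. The share of detected genes below it was 23.1% to 81.1% in young samples, 0.297% to 42.1% in aged samples and 17.5% to 56.9% in CASIN samples, ranges that overlapped. With all values under 4.11 set to 4.11, young minus aged was 1.40 (unadjusted p = 0.0172, adjusted p = 0.898 by limma) and CASIN minus aged was 0.26 (SE 0.53). With the number of detected genes per sample as a covariate, young minus aged was 2.32 (unadjusted p = 0.0397, adjusted p = 0.947 by limma).

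Plin3, Plin4 and Plin5 lie in one stretch of chromosome 17 and were the perilipins with the largest differences between groups. The 250 bases before a RefSeq start of each are therefore shown, on GRCm38.p6. These starts differ from those of the gene spans given above, which follow another annotation (GENCODE). The Plin3 window lies wholly inside its span, and the Plin4 and Plin5 windows overlap theirs. All 3 genes are on the minus strand and the bases run 5′ to 3′ with the gene. Capitals mark AGGTCA, the half-site read by nuclear receptors such as PPARs, and TATAAG, a core promoter box, each searched on both strands.
Plin5, chr17:56117549-56117798: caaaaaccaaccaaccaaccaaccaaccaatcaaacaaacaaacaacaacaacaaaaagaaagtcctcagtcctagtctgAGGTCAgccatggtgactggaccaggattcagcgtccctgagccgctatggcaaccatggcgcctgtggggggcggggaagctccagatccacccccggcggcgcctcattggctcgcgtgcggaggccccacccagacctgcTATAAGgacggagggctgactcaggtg
Plin4, chr17:56109783-56110032: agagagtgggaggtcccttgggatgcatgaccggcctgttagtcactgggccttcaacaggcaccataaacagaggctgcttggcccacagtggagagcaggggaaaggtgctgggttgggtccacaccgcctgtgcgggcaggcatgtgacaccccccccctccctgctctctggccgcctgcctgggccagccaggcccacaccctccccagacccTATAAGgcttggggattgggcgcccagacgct
Plin3, chr17:56290512-56290761: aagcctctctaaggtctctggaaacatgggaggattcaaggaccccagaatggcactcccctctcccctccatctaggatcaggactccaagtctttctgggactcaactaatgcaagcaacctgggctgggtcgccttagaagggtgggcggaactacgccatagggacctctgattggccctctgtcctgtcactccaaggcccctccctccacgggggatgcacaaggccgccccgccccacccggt
The Plin5 window held 1 AGGTCA, beginning 170 bases before the start, and 1 TATAAG, beginning 27 bases before it. The Plin4 window held no AGGTCA and 1 TATAAG, 32 bases before the start, and the Plin3 window held neither. Of 32851 promoter windows of this length, 14% held AGGTCA and 6.65% held TATAAG. Plin5 has a further RefSeq start, whose window held neither motif. Of the other members in the table, Plin2 and Cpt1a held 1 AGGTCA each, and Plin1, Lipe and Pnpla2 held none. Dgat1 and Dgat2 were not among the 8 members matched. A match of letters is a description and not a binding site.

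Of the other perilipins, Plin1, which guards the fat store of adipocytes, was detected in 2 samples, with 3.93 in aged replicate 0 and 0.56 in aged replicate 2. It was undetected in all young and CASIN samples. The young minus aged difference was -0.46 (SE 0.73, 95% interval -2.08 to 1.15; adjusted p = 0.891 by limma), and CASIN minus aged was -0.62 (SE 0.80). In all, 7 further adipocyte markers were searched as a check on fat cell RNA. Of these, 0 to 1 were detected in young samples, 1 to 4 in aged samples and 0, 6 and 3 in CASIN replicates 1, 2 and 3, with summed levels above the lowest value of 0 to 4.47, 1.63 to 9.02 and 0 to 11.38 respectively. Plin5 was 4.37, 4.86 and 3.03 in CASIN replicates 1, 2 and 3, where 6845, 20013 and 7288 genes were detected. The part of fat cell RNA in these Plin5 values was not tested. Of 5 macrophage markers, 0 to 2 were detected in young samples, 1 to 3 in aged samples and 1 to 5 in CASIN samples. Of 7 markers of stroma and endothelium, 0 to 6 were detected in young, 5 to 7 in aged and 2 to 7 in CASIN samples. For 8 erythroid markers these ranges were 1 to 2, 2 to 4 and 0 to 3. For 6 megakaryocyte markers they were 0 to 2, 2 to 4 and 0 to 5. For 12 myeloid markers they were 1 to 3, 3 to 6 and 2 to 9. For 6 B cell markers they were 0 to 3, 2 to 6 and 2 to 6.

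Plin2, the droplet coat that rises with stored fat in most cells, was detected in 1 young sample, at 6.02 in replicate 2. In aged HSCs it was 1.29, 0.32, 3.82 and 1.52 in replicates 0, 2, 4 and 5 and undetected in replicate 3, and in CASIN HSCs it was 1.80 in replicate 2 and undetected in the others. The groups overlapped throughout. The young mean was higher than the aged mean by 0.46 (SE 1.19, 95% interval -2.17 to 3.10; adjusted p = 0.939 by limma). The interval holds differences of several log2 units either way, so these data do not show that Plin2 was alike in the groups. CASIN minus aged was -0.43 (SE 1.30).

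Pnpla2, the lipase that starts triglyceride breakdown, was detected in all 5 aged samples, at 6.32, 6.08, 1.54, 1.30 and 1.84 in replicates 0, 2, 3, 4 and 5. It was detected in 1 of 4 young samples, at 3.03 in replicate 4, and in 1 of 3 CASIN samples, at 2.85 in replicate 2. The aged samples split into a pair above 6 and a trio below 2, and the lone young and CASIN values lay between them. In the trio, the value in aged replicate 4 was that at which detection began, a value that 1452 genes shared. The difference of young from aged HSCs was -2.21 (SE 1.22; unadjusted p = 0.0993, adjusted p = 0.764 by limma), and CASIN minus aged was -2.06 (SE 1.33). With the number of detected genes as a covariate young minus aged was -0.078 (SE 1.19), and with values under 4.11 set to 4.11 it was -0.84 (SE 0.50).

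Lipe was undetected in young HSCs. In aged HSCs it was 1.88, 2.23 and 3.30 in replicates 0, 4 and 5, and in CASIN HSCs 0.67 and 3.03 in replicates 2 and 3. The value in CASIN replicate 3 was again that at which its detected values began. For Lipe, young minus aged was -0.97 (SE 0.75; adjusted p = 0.782 by limma), and CASIN minus aged was -0.09 (SE 0.82). The span of Lipe, introns included, lies wholly within that of the antisense gene 4732471J01Rik, which has its own row. Strand-aware counting was not stated, and the part of antisense reads in the Lipe values was not tested.

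Dgat1 was detected once, at 0.86 in CASIN replicate 2, the sample with the most detected genes. Its young minus aged difference of 0.42 (SE 0.29; adjusted p = 0.764 by limma) compares only the tied lowest values, which were higher in young than in aged samples. Dgat2, which makes triglyceride from newly made fatty acids, was undetected in young HSCs. It was 3.97 and 1.80 in aged replicates 2 and 4 and 1.46 and 6.19 in CASIN replicates 2 and 3. Young minus aged was -0.69 (SE 1.15; adjusted p = 0.899 by limma), and CASIN minus aged was 1.51 (SE 1.25), which became -0.20 without CASIN replicate 3.

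Cpt1a, the gate to mitochondrial fatty acid oxidation, was detected in 2 young samples, at 5.80 in replicate 3 and 2.54 in replicate 4. In aged HSCs it was 1.16, 4.36, 4.11 and 5.58 in replicates 0, 2, 3 and 5 and undetected in replicate 4. It was 2.58 in CASIN replicate 2 and undetected in the other CASIN samples. Young and aged values covered much the same range. Young minus aged was -0.67 (SE 1.34, 95% interval -3.63 to 2.29; adjusted p = 0.920 by limma), and CASIN minus aged was -1.83 (SE 1.46).

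**Figure D3:**
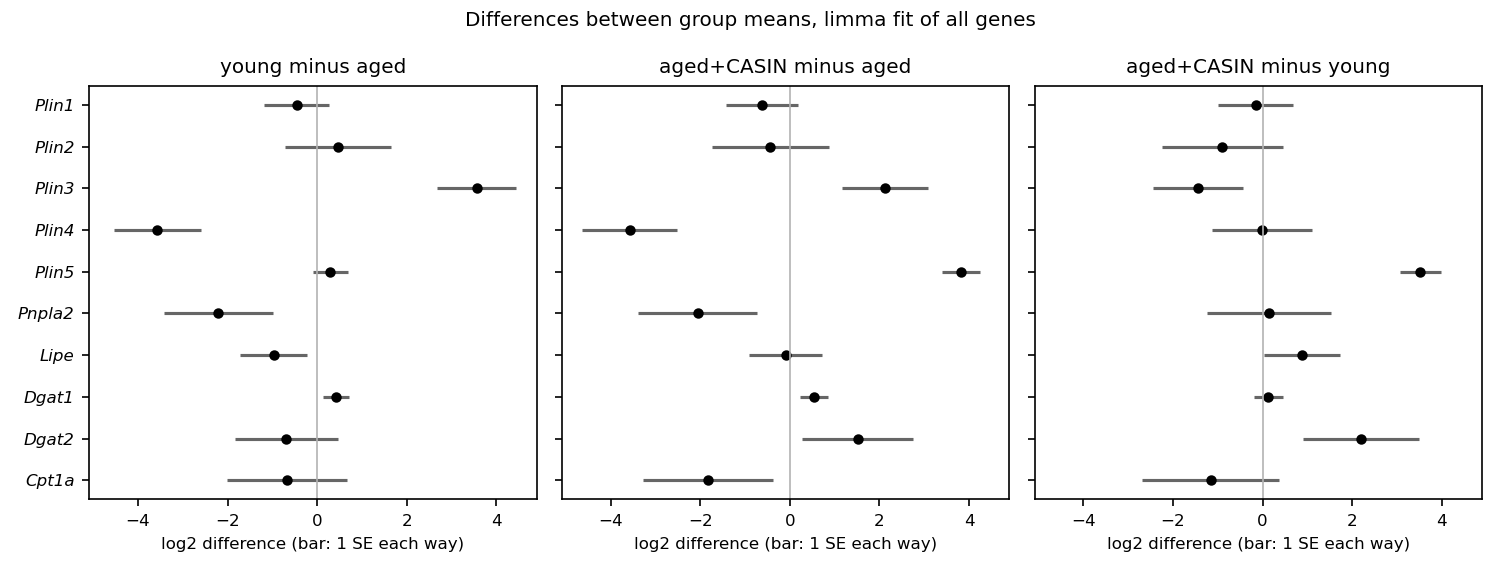
Differences between group means on the log2 scale (x axis) for the 10 genes (y axis) in the 3 comparisons; points are differences and bars reach 1 SE each way. Plin5 is the gene farthest to the right in both CASIN comparisons (3.82 and 3.52), Plin4 the farthest to the left against aged HSCs (-3.57 in young and -3.58 in CASIN HSCs).

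For young against aged HSCs, the comparison of age groups, 0 of the 9 genes other than Plin5 passed an adjusted p of 0.05, where 0.0177% of all genes (4 of 22548) did. At an unadjusted p under 0.05 there were 2 of 9, Plin3 higher and Plin4 lower in young HSCs, where 5.33% of all genes (1202) passed. Young and aged values did not overlap for 2 of 9, Plin3 and Dgat1, against 9.15% of all genes. Dgat1 was undetected in both groups. Of the 9 differences 3 were above 0 and 6 below, with a median of -0.67 against -0.02 over all genes. Every aged sample had more detected genes (11463 to 17621) than any young sample (6078 to 9673). Age and detection thus cannot be told apart in these differences. Without aged replicate 4, the only aged sample with Plin4 undetected, the count past the adjusted threshold was 1, Plin4.

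For CASIN against aged HSCs, the contrast that Plin5 was chosen on, the members were counted without Plin5. None of the 9 passed the adjusted threshold of the limma fit, where 0.0222% of all genes did, 1 of 9 (Plin4, lower in CASIN HSCs) passed unadjusted, where 4.4% did, and 1 of 9 (Dgat1, detected in a single sample) did not overlap, where 4.82% did. Without aged replicate 4, Plin4 passed the adjusted threshold here too. For CASIN against young HSCs 0 of 9 passed the adjusted threshold, as did 0% of all genes. At an unadjusted p under 0.05 in the limma fit 0 of 9 passed, where 4.29% of all genes (968) did, and 0 of 9 did not overlap, where 2.96% did. The 3 comparisons share samples and are not independent of each other. The medians of the 9 differences were -0.43 and -0.0095, against -0.04 and -0.09 over all genes.

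The remaining lipid metabolism genes were taken from 7 lists covering droplet coats, lipolysis, triglyceride synthesis, fatty acid oxidation, fatty acid synthesis, fatty acid uptake and transcriptional regulators. Of the 113 genes listed, 111 had a row. None of the 111 passed an adjusted p of 0.05 in any of the 3 comparisons. At an unadjusted p under 0.05 in the limma fit, the comparison of young with aged HSCs had 5 genes (4 higher in young), that of CASIN with aged HSCs had 0, and that of CASIN with young HSCs had 4 (2 higher in CASIN). These counts come to 4.5%, 0% and 3.6% of the 111, beside the shares of all genes given above. Of the 13 further droplet coat genes none passed even unadjusted in any comparison.

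Among the genes leading their lists, Agpat1, which makes phosphatidic acid on the way to triglyceride, was detected in all 4 young, 4 of 5 aged and all 3 CASIN samples, and its young minus aged difference was 2.76 (SE 0.79; unadjusted p = 0.00516, adjusted p = 0.586 by limma). Its values in young replicates 2 and 5, aged replicate 3 and CASIN replicates 1 and 3 were those at which detection began. Pnpla7, a lysophospholipase related to Pnpla2, was detected in 3 aged samples, at 6.22, 6.98 and 6.13, and in no young sample, with a difference of -3.35 (SE 1.46; adjusted p = 0.764 by limma). Etfb, an electron carrier for beta-oxidation, was detected in 2 young samples only, with a difference of 3.01 (SE 1.20). Its value in young replicate 2 was that at which detection began, and in young replicate 4 it was 7.36. Fads1, a fatty acid desaturase, was 5.11 ± 1.98 (SD, n = 4) in young, 2.22 ± 1.93 (n = 5) in aged and 1.20 ± 1.04 (n = 3) in CASIN HSCs, so young minus aged was 2.89 and CASIN minus young -3.91. Ppargc1b, a coactivator of oxidative metabolism, was 5.99 ± 1.49 in young and 2.61 ± 1.56 in CASIN HSCs. Its value in CASIN replicate 3 was again that at which detection began. Eci1, an enoyl-CoA isomerase of beta-oxidation, was undetected in young and detected in 4 of 5 aged and all 3 CASIN samples. In aged replicate 3 and CASIN replicate 3 its values were those at which detection began. For Eci1, CASIN minus young was 1.93 (SE 0.79). None of these differences passed adjustment.

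Around Plin5, 13 other annotated genes lay within 100 kb, of which 11 had a row: Mpnd, Sh3gl1, Chaf1a, Ubxn6, Hdgfl2, Plin4, Lrg1, Sema6b, Tnfaip8l1, Mydgf and Dpp9. Of these, Plin4 was the only one with an unadjusted p under 0.05 in the limma fit in any comparison. Lrg1, 2082 bp from Plin5 and known as a secreted glycoprotein, was detected in 1 young, 3 aged and 0 CASIN samples, at means of 2.29 ± 3.53, 1.12 ± 1.04 and 0.40 ± 0.35. Mydgf was detected in 1 young, 1 aged and 2 CASIN samples, with means of 1.06 ± 0.96, 0.26 ± 0.25 and 2.24 ± 3.12. Plin3 lies 159880 bp from Plin5, outside this window.

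**Figure D4:**
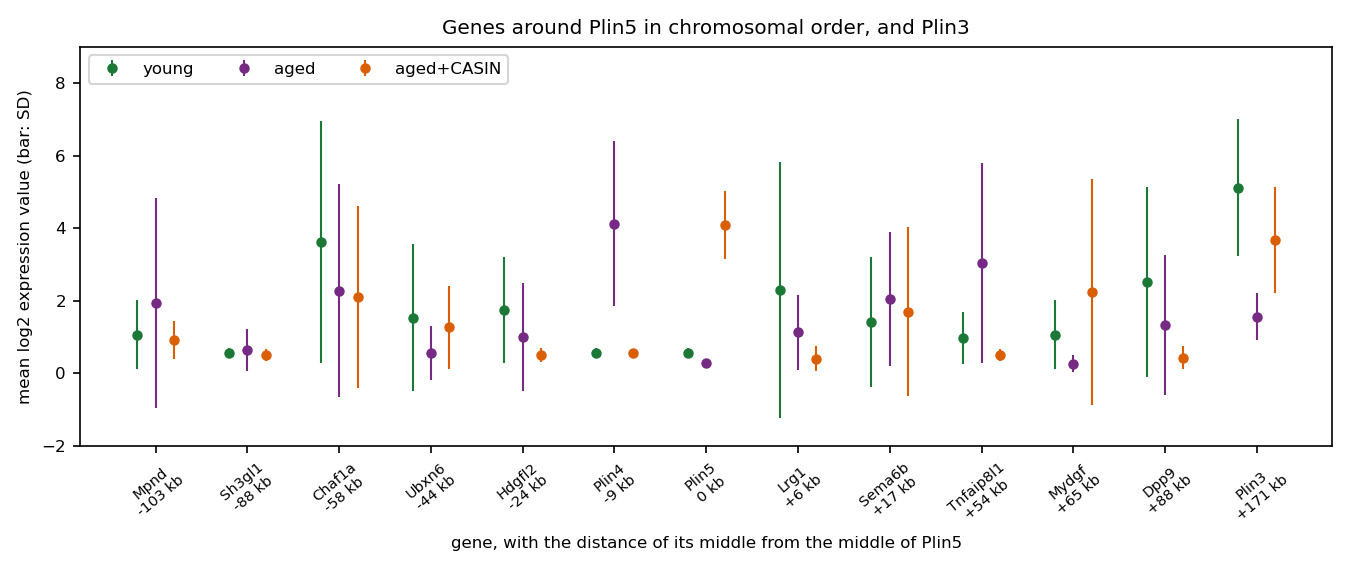
Mean log2 expression value with SD (y axis) in young (n = 4), aged (n = 5) and CASIN-treated aged (n = 3) HSCs for the measured genes around Plin5 in chromosomal order, with Plin3 at the end; the x axis names the gene and its distance from Plin5. Plin5 has its highest mean in CASIN HSCs (4.08) and the adjacent Plin4 in aged HSCs (4.13).

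Over the 12 samples, the genes whose values were most like those of Plin5, among 19110 other genes detected in at least 3 samples, were C730027H18Rik (Pearson r = 0.919), Trim27 (0.909), Polr1d (0.901), Lrrc17 (0.9) and Ypel3 (0.881). Rank correlations (Spearman) with Plin5 were unequal, at 0.9, 0.546, 0.497, 0.841 and 0.729 in the same order. The points share the differences in detection between samples given above, and the values that chose Plin5 enter each correlation, so these are descriptions. C730027H18Rik was undetected in all 9 control samples and had a mean of 4.94 in CASIN HSCs, so it met the filter through the CASIN samples only. In control samples where Plin5 was also undetected, both genes held the same tied value, which enters both correlations. Trim27, an E3 ubiquitin ligase, was detected in 4 of 5 aged samples, with a mean of 1.58 in aged and 5.58 in CASIN HSCs.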

How the data were processed

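RNA of sorted long-term HSCs was amplified with a kit using oligo-dT and selective primers and sequenced as paired ends. Per the labels and the study's methods, the authors trimmed the reads, aligned them with TopHat to mm10 RefSeq genes, and quantified them with Cufflinks. The authors deposited log2, quantile normalised values in 1 matrix of 22548 genes by 12 samples. The step from Cufflinks output to these values, read depth, scaling by length and use of strand are not given in the sources used here, so named genes were not compared with each other in level and no counting interval was given. The share of detected genes below a value places it within its own sample only, and it may depend on gene length.

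Columns were matched to samples by title. A gene was called detected in a sample when above the lowest value of that sample. One linear model of the 3 groups was fitted to all genes, without a filter, with limma 3.58.1 in R 4.3.3 (moderated test, two-sided, Benjamini-Hochberg adjustment over all 22548 genes). The fit was also run on values shuffled among the samples gene by gene, with 200 genes then raised in the young samples. Such shuffling removes the differences in detection between samples, so that run cannot show how the fit handles them. Tables and plots were made with Python 3.11.15, pandas 2.3.3 and matplotlib 3.10.9. Positions of genes follow the mm10 annotation GENCODE M21, and upstream sequences are from RefSeq GRCm38.p6.

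The members and gene lists were chosen with earlier results of these data known. Named genes were all 10 members, of each lipid list the gene with the smallest unadjusted p under 0.05 in each comparison, the 5 genes most like Plin5 by Pearson r, and genes within 100 kb of it. Alternatives were a common lowest value, centring, a detection filter, a pseudocount of 0.1, array weights, only the 2 groups compared, a detection covariate, a replicate block, and leaving out each sample. A common floor was added after seeing the data.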

Additional observations from a re-analysis of the deposited data

Results flagged for a closer look

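Of 20 groups of 4 or more samples (10 genes in young and in aged HSCs), 5 had a lone sample whose gap to its nearest neighbour, relative to the range of the group, exceeded the critical value of Dixon's test at the 95% level. Chance gives about 1 such group in 20 if the groups are independent. These were not, since genes undetected in all young samples have the same young values. The young groups of Plin2 and Pnpla2 consist of lowest values plus 1 detected value, which passes this rule readily. Plin1 was 3.93 in aged replicate 0, where the next value was 0.56. Plin2 was 6.02 in young replicate 2, with the other 3 young samples undetected, the highest at 0.65. Pnpla2 was 3.03 in young replicate 4, with the other 3 undetected. Plin4 was 0.22 (undetected) in aged replicate 4, with the nearest other aged sample at 4.37. Plin5 was 0.48 in aged replicate 0, where the next aged value was 0.23.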

How the results depend on the processing

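Over all settings, no further lipid gene was called in any comparison. In young against aged HSCs, members called were 0, and 0 to 1 when single samples were left out (Plin4 without aged replicate 4, adjusted p = 0.00453 by limma). The counts for the CASIN comparisons include Plin5, which was chosen by these values, so they are no test of it. In CASIN against aged HSCs the count was 1 (Plin5) and 0 under the filter for detection in at least 3 samples, the pseudocount of 0.1, only 2 groups, the replicate block and the common floor, and was 0 to 2 with single samples left out: 0 without aged replicate 2 or 3, and 2 without aged replicate 4, when Plin4 was called too. In CASIN against young HSCs the count was 0, and 1 (Plin5) with a common lowest value and with the detection covariate, and was 0 to 1 with single samples left out (1 without CASIN replicate 2 or 3). The Plin5 difference itself, 3.82, was 3.82 with the filter and with 2 groups, 5.77 with the pseudocount, 3.72 with the block, 3.81 without aged replicate 2 or 3, and 0.33 with the common floor, whose construction compresses low values. The causes of the other changes were not tested. Deviations of same-numbered samples from their group means had r from -0.033 to 0.0576 across genes. Many values were tied at a lowest value and the labels name no mice or days, so this cannot show whether the numbers pair samples. With the replicate block, genes called over the whole table were 2, 1 and 0 against 4, 5 and 0. Centring shifted all differences by 0.45, 0.35 and -0.10. Only uncalled differences changed sign: in young minus aged HSCs Plin5 was -0.14 with a common lowest value, Cpt1a 0.50 with the covariate and 0.079 with the common floor, and Plin1 0.26 with the block; in CASIN minus aged HSCs Lipe was 0.26 under centring, 0.26 with the pseudocount, 0.084 with array weights and 1.06 with the block; in CASIN minus young HSCs Plin4 was 0.15 with a common lowest value and Pnpla2 -1.07 with the covariate. With single samples left out, signs also changed within these ranges: young minus aged, Plin1 -0.68 to 0.26 and Plin2 -0.91 to 1.06; CASIN minus aged, Plin1 -0.83 to 0.11, Plin2 -0.83 to 0.16, Lipe -0.88 to 0.35 and Dgat2 -0.20 to 2.58; CASIN minus young, Plin1 -0.27 to 0.042, Plin2 -1.39 to 0.48, Plin4 -0.053 to 0.042 and Pnpla2 -0.61 to 0.75. The samples concerned were young replicate 2 and aged replicate 4 for Plin2, aged replicate 0 and CASIN replicate 2 for Plin1, CASIN replicate 3 for Dgat2, aged replicates 4 and 5 and CASIN replicates 1 and 2 for Lipe, and young replicates 2 and 5 and CASIN replicate 2 for Plin4 and Pnpla2, with young replicate 3 for Pnpla2. The filter left no value for Plin1 and Dgat1. Unknown read depth limits what an undetected value can show.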
